A study of Homo sapiens with 6 samples.

Results

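The analysis followed which transcripts of a gene made up its messenger RNA when CDAN1 was knocked down in K562, an established human erythroleukaemia cell line, and set each induced culture against the uninduced culture of the same clone. A gene was included when it had 10 or more TPM (an abundance scaled for transcript length and library total) in all 4 CDAN1 shRNA libraries and 2 or more listed transcripts, with transcripts assigned to genes by GENCODE release 29. This chose 6778 of 33367 matched genes, and they held 67632 of 151039 matched transcripts. The induced group was made up of clones c1 and c2 (labelled CDAN1-shRNA-c1 and CDAN1-shRNA-c2) in 1 µg/ml doxycycline, which switches on the short hairpin RNA (shRNA), and the uninduced group was the same 2 clones without it. Another clone, with a non-targeting hairpin (NT-shRNA), with and without doxycycline, served only as a reference for the drug. All cultures were kept in 2 µg/ml puromycin and taken at day 4, so puromycin and the integrated cassette were common to every library. Each of the 6 libraries was 1 culture of 1 clone and held between 28318555 and 32352246 estimated reads. The labels name no replicate cultures of a clone, so a p-value over the 2 clones measures at most the spread between these libraries. The 9 markers chosen for K562, embryonic and fetal globins and erythroid genes, summed to between 24130 and 32830 TPM per library. Lymphoid markers summed to 23.4 to 70.2 TPM, nearly all from CD3D with the B-cell marker MS4A1 at 0, fibroblast markers to 1.15 to 5.59 TPM, and epithelial markers to 65.1 to 122.9 TPM with KRT5 at 0. The lymphoid sum was 52.2 and 23.4 TPM in induced c1 and c2, against 70.2 and 41.1 TPM in the same clones uninduced, and its part in the results was not tested. In bulk RNA, fewer cells of a type and less RNA per cell cannot be told apart.

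CDAN1 encodes codanin-1, a cytoplasmic protein that binds the histone chaperone ASF1, and inherited loss of its function causes congenital dyserythropoietic anaemia type I, in which erythroblasts have abnormal chromatin. Most human genes give several transcripts, through alternative promoters, alternative splice sites and alternative polyadenylation sites. Some of these encode the same protein, some another protein, and some carry a retained intron or a premature stop codon that marks them for nonsense-mediated decay (NMD). Which one a cell makes can change without a change in the summed output of the gene, and erythroid maturation is known for such switches. The quantity used here is the share of a transcript, its TPM as a percentage of the summed TPM of its gene, and the share difference is the induced share minus the uninduced share of the same clone, in percentage points.

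The sequences below are those of transcripts on which the calls turn, chosen because a junction or an exon edge sets the transcript apart from the main transcript of its gene. Each line gives 15 bases before the join in lower case and the first 15 bases of the downstream exon in capitals, 5′ to 3′, from the GENCODE 29 transcript sequences. Positions are on GRCh38 and give the last base of the upstream exon and the first base of the downstream exon.
TFR2-212 (chromosome 7, minus strand, exon from 100633556): cctctccccgcttagGCAAACCAGCCTTCG
TFR2-201 (the same exon, spliced from 100640686): ggaggacaccatcagGCAAACCAGCCTTCG
TFG-204 (chromosome 3, plus strand, 100736704 to 100744833): ctcagactcaagcagGTCAGATGTACCAAC
TFG-201 (100736716 to 100744833): caggtcagattgaagGTCAGATGTACCAAC
ZBTB8OS-202 (chromosome 1, minus strand, 32634702 to 32634072): aatgtttcaatcttgGTTACACGCATGGGG
ZBTB8OS-204 (32634768 to 32634072): tacagcagatgtccaGTTACACGCATGGGG
KIF23-207 (chromosome 15, plus strand, 69440077 to 69444790): tgggagaaagaatgtTTACTCTTTCAACCT
KIF23-202 (69440487 to 69444790): ccatcacctgtgcctTTACTCTTTCAACCT
ATXN7L3-210 (chromosome 17, minus strand, 44195419 to 44195158): agcctgctaaccacgCTTATATTCCTCTTC
ATXN7L3-201 (44195419 to 44195140): agcctgctaaccacgCAATGTGGGGTGATT
In TFR2-212 the 94 bases before the shared exon belong to the intron of the main transcript, and the transcript starts at 100633650 inside that intron. TFG-204 lacks the last 12 bases of the exon that TFG-201 uses whole, both within the coding sequence. KIF23-207 joins its exon straight to 69444790, where KIF23-202 first includes an exon ending at 69440487. ATXN7L3-210 begins the downstream exon 18 bases earlier than ATXN7L3-201. The listed lengths of KIF23-207 and ZBTB8OS-202 differ from those in GENCODE 29, at 3409 against 3129 bases and 509 against 598 bases. Where their deposited models differ is not known, so the junctions shown may not be those that were quantified.

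CDAN1 itself (chromosome 15, 42723544 to 42737128, minus strand, GRCh38) checks the induction. Its summed TPM was 6.80 in induced c1 and 9.25 in induced c2, against 10.5 in uninduced c1 and 16.8 in uninduced c2. The NT clone had 22.4 TPM induced and 19.2 TPM uninduced. Both induced clones lay below their uninduced cultures and below 10 TPM, so CDAN1 is not among the 6778 genes and is described apart from them. CDAN1-201, the main coding transcript, held 52.8% and 65.9% of the gene's TPM in induced c1 and c2, against 78.9% and 76.3% in uninduced c1 and c2. In the NT clone it held 68.7% induced and 66.2% uninduced, so both induced clones lay below the 4 other libraries, c2 by less than 1 point below uninduced NT. The share of CDAN1-201 changed by −18.2 ± 11.1 points (SD, n = 2 clones) and no CDAN1 transcript was called by the test described below (edgeR adjusted p of 1 for CDAN1-201).

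In c1 much of that difference lay in CDAN1-203, an annotated transcript of 285 bases. It held 30.5% and 0% of the gene's TPM in induced c1 and c2, against 0% and 6.03% in uninduced c1 and c2. These shares rested on 3 and 0 estimated reads in the induced libraries and 0 and 1.4 in the uninduced ones, because TPM divides by length. The summed CDAN1 TPM of induced c1 given above includes this 30.5%. In estimated reads the gene had 513 and 897 in induced c1 and c2, against 1048 and 1617 in uninduced c1 and c2. Taken over estimated reads instead, CDAN1-201 held 86.3% of the 513 CDAN1 reads in induced c1 (95% Wilson interval 83.1% to 89.1%) and 80.3% of 897 in induced c2 (77.5% to 82.7%). The uninduced values were 90.5% of 1048 reads in c1 (88.6% to 92.2%) and 89.5% of 1617 in c2 (88.0% to 90.95%). The NT clone had 88.3% induced and 84.5% uninduced. On that scale both CDAN1 shRNA clones had a lower share of CDAN1-201 when induced, while uninduced NT lay below induced c1, and the intervals cover counting error only. CDAN1-204, a transcript with a retained intron, held 6.81% and 15.4% of the TPM in induced c1 and c2, against 5.56% and 4.12% in uninduced c1 and c2, and 5.39% and 6.34% in induced and uninduced NT. Its estimated reads were 23.7 and 69.9 in the induced clones and 27.8 and 32.5 in the uninduced ones, so in c1 they differed by a few reads. CDAN1-202, an NMD transcript, held 9.89% and 18.6% in induced c1 and c2, against 10.9% and 13.6% in uninduced c1 and c2, with opposite directions in the clones.

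**Figure D1:**
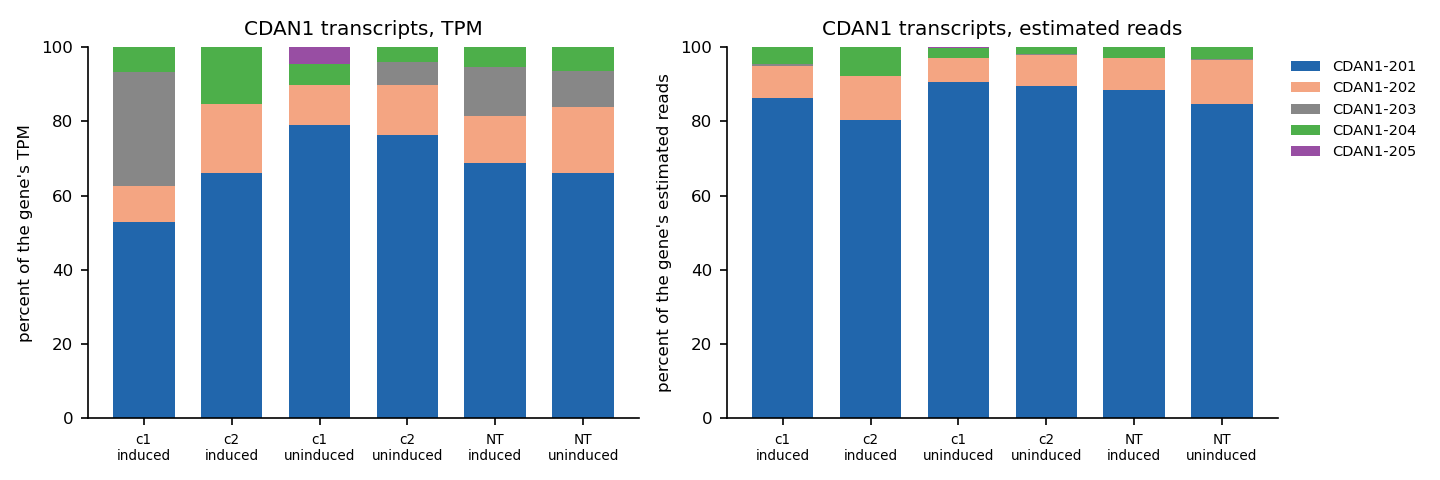
Stacked bars give the percentage of CDAN1 TPM (left) and of CDAN1 estimated reads (right) held by each of its 5 listed transcripts in every library. CDAN1-203 took 30.5% of the TPM in induced c1 on 3 estimated reads, and its bar all but vanishes on the right.

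Across the 6778 genes, share differences in the 2 clones did not go together. In c1, 2603 transcripts moved by 10 points or more, in c2 1747 did, and in the NT clone 1923 did. Of the transcripts that moved by 10 points or more in both CDAN1 shRNA clones, 243 moved in the same direction and 254 in opposite directions. At 5 points or more the counts were 1424 the same and 1474 opposite, and at 20 points or more 21 and 17. Same and opposite directions were thus about equally common at each of the 3 sizes. Against the NT clone, c1 moved the same way for 1568 transcripts and the opposite way for 1376 at 5 points or more, and c2 for 1337 and 1251. Of the 243, the NT clone also moved in that direction, by any amount, for 120. Over all 67632 transcripts the share differences of c1 and c2 had a Pearson r of 0.00468 and a Spearman rho of 0.00149, given as a description, since transcripts of a gene share its total. Their standard deviations were 4.05 points in c1, 3.50 in c2 and 3.64 in NT.

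**Figure D2:**
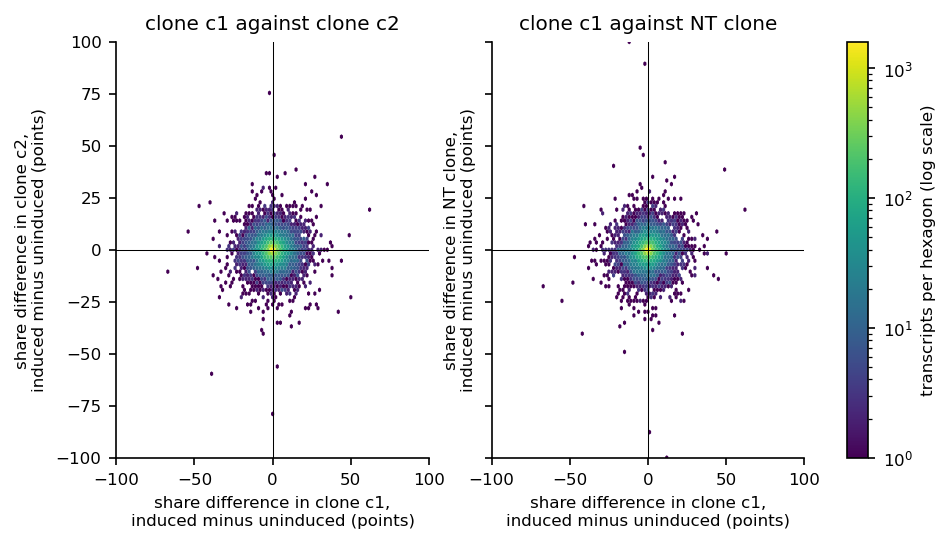
Each hexagon counts transcripts with a mean of 100 or more estimated reads by their share difference in clone c1 (horizontal axis, points) and in clone c2 (left) or the NT clone (right), with colour on a log scale. Both clouds are centred on 0, and 149 transcripts moved by 10 points or more in the same direction in c1 and c2, against 151 in opposite directions.

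The balance was much the same at greater depth and in transcripts with sequence of their own. Of the 67632 transcripts, 10244 had no read in any of the 4 libraries and 35482 had a mean of 10 or more estimated reads. Among the 16504 with a mean of 100 or more, 149 moved by 10 points or more in the same direction and 151 in opposite directions, with r = 0.00875. In these deeper transcripts r was 0.0522 between c1 and NT and 0.0554 between c2 and NT, and at 5 points or more c1 and NT moved the same way for 969 and the opposite way for 774, c2 and NT for 766 and 701. Transcripts of a gene share most of their bases, so reads are divided between them by estimation, and 3553 of these 16504 (21.5%) held no 31-base word that was absent from all other listed transcripts with a sequence in GENCODE 29. In those 3553, 222 moved by 5 points or more in the same direction and 190 in opposite directions. Among the 2704 with 1000 or more words of their own, whose reads are the least ambiguous, 97 moved in the same direction and 105 in opposite directions. Summing transcripts that share a feature gave the same picture. With transcripts of the same coding sequence summed, 197 moved by 10 points or more in the same direction and 216 in opposite directions. Summed by the first base of the last exon, the counts were 115 and 118. Summed by the last base of the first exon, they were 162 and 171. Polyadenylation sites or promoters that share such an exon edge were summed together, so these counts do not separate them.

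**Figure D3:**
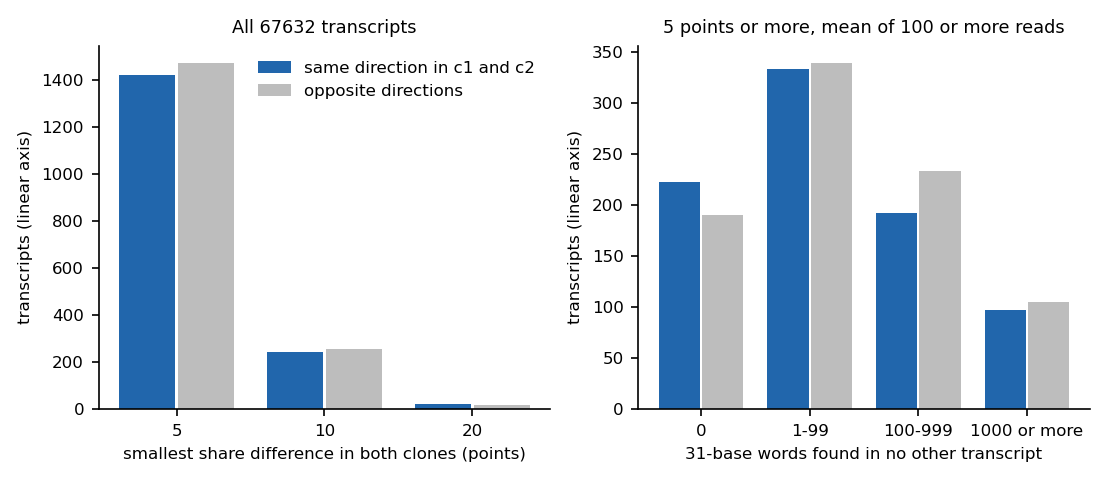
Bars count transcripts whose share moved by at least the given number of points in both CDAN1 shRNA clones, in the same direction (blue) or in opposite directions (grey), for all transcripts (left) and at 5 points or more by the number of 31-base words of their own (right). The bars of a pair are close to equal in height at 5 and 10 points, with 243 against 254 at 10 points.

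The size of the changes can be read per gene as the share moved, the part of a gene's TPM that lay on other transcripts in the second library. Its median over the genes was 8.49% between induced and uninduced c1 and 7.13% between induced and uninduced c2. The NT clone, which lacks a CDAN1 hairpin, had a median of 7.57% between its induced and uninduced libraries. The 2 clones compared in the same condition had a median of 7.87% between induced c1 and c2, and 8.43% between uninduced c1 and c2. Uninduced NT differed from uninduced c1 by 9.55% and from uninduced c2 by 8.48%. The median for c1 was thus inside the range of the other pairs and that for c2 below it. The share moved was smaller in deeply read genes. Among the 401 genes with 10000 or more estimated reads its median was 4.41% for c1, 2.81% for c2 and 3.10% for NT, against 13.0%, 11.8% and 11.6% among the 339 genes with under 500. It was larger in genes with many listed transcripts, with medians of 15.6% for c1, 13.7% for c2 and 13.9% for NT over the 587 genes with 20 or more, against 3.12%, 2.64% and 2.75% for the 1317 genes with 2 to 4.

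**Figure D4:**
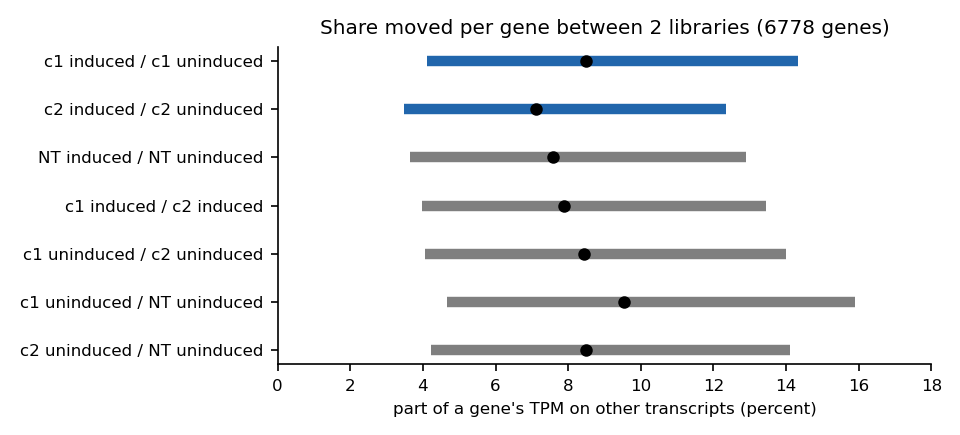
For each pair of libraries the point is the median over 6778 genes, and the bar the quartile range, of the percentage of a gene's TPM that lay on other transcripts. The induced and uninduced pairs of c1 (8.49%) and c2 (7.13%) lie inside and below the range of the other 5 pairs, 7.57% to 9.55%.

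The test asked, for each transcript, whether its induced to uninduced ratio, averaged over the 2 clones, differed from that of its gene (edgeR quasi-likelihood test, clone as a block, Benjamini-Hochberg adjusted p under 0.05). Of the 44756 transcripts tested over the whole table, 231 (0.516%) were called, 111 as gaining share (0.248%) and 120 as losing it (0.268%). By gene, 173 of 9544 (1.81%) were called. Of the 35239 tested transcripts of the 6778 genes, 184 in 167 genes were called, 87 gained and 97 lost, which is 0.522% and close to the background. At an unadjusted p under 0.05, 1534 of all 44756 passed. Of the 184, 145 had share differences of the same sign in both clones, 42 moved by 5 points or more in both and 12 by 10 points or more. For 140 of the 184 the shared sign was fixed in advance. These were at 0 in both libraries of a condition and above 0 in both of the other. The shared sign is therefore no measure of agreement between the clones. The smaller of the 2 share differences of a called transcript had a median of 2.17 points. It is 0 by construction for the 39 with reads in 1 library alone.

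Nearly all calls were of transcripts listed at exactly 0. In 226 of the 231 called transcripts both libraries of a condition were at 0, 117 of them at 0 in both induced clones and 109 at 0 in both uninduced clones, among 610 and 620 tested transcripts with these patterns. Of 38987 tested transcripts above 0 in all 4 libraries, 3 were called. Where both libraries of a condition are at 0, the clone and induction terms fit the other counts exactly. The p-value of such a transcript therefore does not measure how well the clones agree. Of the 184 in the studied genes, 140 were above 0 in both libraries of the other condition and 39 had reads in 1 library alone. Of these 140, 42 were at 0 in both NT libraries as well. A 0 here is an estimate and not a count, since reads compatible with several transcripts are divided among them. Of the 184, 80 (43.5%) had no 31-base word of their own, against 19.7% of the tested transcripts. When only transcripts with a count above 0 in all 4 libraries were fitted, an alternative added after the data were seen, 1 of 38391 was called, TFR2-212. DESeq2 called 548 transcripts and limma on logit shares called 0 (1812 at an unadjusted p under 0.05). Without the library of induced c1, in a fit that then had no block, edgeR called 147.

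The 3 called transcripts above 0 in all 4 libraries were TFR2-212, PLCB3-202 and THOC2-216, and TFR2-212 kept its call in that refit. TFR2 encodes transferrin receptor 2, an iron sensor that also associates with the erythropoietin receptor in erythroid cells, and TFR2-212 (ENST00000476304, chromosome 7, minus strand, 2421 bases) is annotated as a retained intron with no coding sequence. It held 1.62% of TFR2 TPM in induced c1 and 2.44% in induced c2, against 11.1% in uninduced c1 and 11.7% in uninduced c2. In the NT clone it held 6.69% induced and 4.47% uninduced. The induced and uninduced CDAN1 shRNA clones did not overlap, and the NT libraries lay between them. Its share fell by 9.34 points on average (SD 0.181, n = 2 clones; adjusted p = 0.0265), on 58.2 and 119.4 estimated reads in the induced clones against 324.8 and 464.3 in the uninduced ones. Of the gene's estimated reads it took 1.88% in induced c1 (95% Wilson interval 1.46% to 2.42%) and 2.83% in induced c2 (2.37% to 3.37%), against 12.8% (11.55% to 14.15%) and 13.1% (12.0% to 14.2%) in uninduced c1 and c2. Gene TPM of TFR2 was 59.1 and 83.9 in the induced clones, against 51.6 and 71.4 in the uninduced ones. TFR2-212 holds 92 words of its own, in the intronic bases before the exon shown above. Its adjusted p ranged from 0.000273 (DESeq2) to 0.967 (limma) over 13 alternatives and was under 0.05 in 5, without the block it was 0.1, and without induced c1 it was 0.55. The difference between the clones' response and the NT response had an adjusted p of 0.187.

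The other 4 called transcripts that were not at 0 in both libraries of a condition are named here after their values were seen. PLCB3-202, a coding transcript of phospholipase C beta 3, held 9.11% and 6.05% in induced c1 and c2, against 0.755% and 0.714% in uninduced c1 and c2 (adjusted p = 0.0475, and 0.072 without the block). The NT clone had 0% induced and 1.75% uninduced, so the induced clones stood above all 4 other libraries. THOC2-216, of a subunit of the TREX mRNA export complex, held 2.83% and 9.34% in induced c1 and c2, against 8.32% and 19.3% in uninduced c1 and c2 (adjusted p = 0.0403, and 1 without the block), with overlapping groups. RPS3-204, an NMD transcript of a ribosomal protein of the small subunit, held 5.43% and 1.07% in induced c1 and c2, against 0.131% and 0% in uninduced c1 and c2 (adjusted p = 0.00352). The NT clone had 7.94% induced and 8.02% uninduced, above all 4 CDAN1 shRNA libraries. Over estimated reads RPS3-204 held 1.61% and 0.314% in induced c1 and c2, against 0.0391% and 0% in uninduced c1 and c2. EEF1B2-208, an NMD transcript of a translation elongation factor, held 0% and 0.286% in induced c1 and c2, against 1.10% and 3.54% in uninduced c1 and c2 (adjusted p = 0.0348, and 1 without the block). RPS3 and EEF1B2 have processed copies elsewhere in the genome, so their small shares are uncertain.

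The remaining named transcripts were the 20 genes with a called transcript, the same sign in both clones and the largest smaller share difference, TFR2 among them. Apart from TFR2-212 their called transcripts were at 0 in both libraries of a condition, which fixed their shared sign. CENPK, CENPO and CNTRL concern the centromere and the centriole. CENPK-201, of a protein of the constitutive centromere network, was listed at 0% in both induced clones, against 17.6% in uninduced c1 and 19.6% in uninduced c2 (adjusted p = 7.71e-05), and the NT clone had 0% induced and 10.0% uninduced. CENPO-203, a non-coding transcript of another protein of that network, was at 0% in both induced clones, against 17.9% and 12.9% in uninduced c1 and c2 (adjusted p = 0.00352), which over estimated reads was 4.56% and 3.46%. CNTRL-201, of the centriole protein centriolin, was at 0% in both induced clones, against 19.2% and 20.8% in uninduced c1 and c2 (adjusted p = 0.0218). CENPO-203 and CNTRL-201 were also at 0% in both NT libraries, so in these the uninduced CDAN1 shRNA clones stood alone. An estimate of 0 of the 1443 CENPK reads in induced c1 allows a share of up to 0.208% of reads, counting error only.

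Among regulators of transcription and of RNA, EYA3-203 gained share and FXR1-207 lost it. EYA3 is a transcriptional coactivator with phosphatase activity. EYA3-203 (ENST00000373871, chromosome 1, minus strand) held 18.2% and 21.4% in induced c1 and c2, against 0% in both uninduced clones (adjusted p = 0.00355), and 6.19% and 9.56% in induced and uninduced NT. In uninduced c1, 0 of 2091 EYA3 reads allows a share of up to 0.143%. The main transcript EYA3-204 moved the other way, with 37.4% and 41.6% in induced c1 and c2, against 58.8% and 55.3% in uninduced c1 and c2, and was not called. FXR1-207, of a relative of the fragile X RNA-binding protein, was at 0% in both induced clones and both NT libraries, against 9.71% and 8.67% in uninduced c1 and c2 (adjusted p = 0.0014). UPF2-203, of a core NMD factor, held 12.1% and 7.71% in induced c1 and c2, against 0% in both uninduced clones and both NT libraries (adjusted p = 0.0195). It has the same coding sequence as the main transcript UPF2-202 and another first exon. ATXN7L3-210, of the deubiquitinase module of the SAGA coactivator, held 10.3% and 9.12% in induced c1 and c2, against 0% in both uninduced clones (adjusted p = 0.0132), and 18.8% and 9.93% in induced and uninduced NT.

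Among RNA processing enzymes and helicases, ZBTB8OS-202 gained share. ZBTB8OS, also called archease, activates the tRNA ligase. ZBTB8OS-202 held 32.0% and 24.4% in induced c1 and c2, against 0% in both uninduced clones and both NT libraries (adjusted p = 0.0348). ZBTB8OS-204 held 0% and 10.3% in induced c1 and c2, against 26.9% and 36.3% in uninduced c1 and c2, and 35.3% and 39.5% in induced and uninduced NT, and was not called. The pair differ at the donor shown above, and 82.3 and 90.3 estimated reads carried the gain, 15.7% and 13.3% of the gene's reads. DHX33-203 and DHX37-201 come from DEAH-box helicases of ribosome production. DHX33-203 was at 0% in both induced clones, against 12.2% and 11.3% in uninduced c1 and c2 (adjusted p = 0.0265), which over estimated reads was 6.03% and 5.76%. DHX37-201 was at 0% in both induced clones, against 66.6% and 9.80% in uninduced c1 and c2 (adjusted p = 0.0475), and the uninduced values differ more between the clones than the smaller of them differs from 0. DHX37-203, annotated as a retained intron, held 84.7% and 92.1% in induced c1 and c2, against 23.3% and 73.3% in uninduced c1 and c2, and was not called by edgeR (adjusted p = 1). In the NT clone DHX37-201 changed by −17.5 points and DHX37-203 by 19.8 points, in the same directions and by more than in c2. DHX37-201 and DHX37-203 have 0 and 1 words of their own.

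In secretion and membrane transport, TFG and SAR1B each lost a coding transcript. TFG organises the sites where COPII vesicles leave the endoplasmic reticulum. TFG-204 was at 0% in both induced clones, against 9.84% and 11.8% in uninduced c1 and c2 (adjusted p = 0.012), and 12.5% and 9.92% in induced and uninduced NT. TFG-204 has the 12-base shorter exon, and 333.5 and 426.5 estimated reads were assigned to it in the uninduced clones. Its junction is found in 2 of the 8 listed TFG transcripts, so the loss of TFG-204 is not a measure of the shorter exon as a whole. TFG-208 was at 0% in both induced clones, against 20.3% and 6.43% in uninduced c1 and c2 (adjusted p = 0.0107), and 14.0% and 0% in induced and uninduced NT. TFG-208 encodes the same protein as TFG-201, which held 72.9% and 67.0% in induced c1 and c2, against 52.4% and 62.6% in uninduced c1 and c2. SAR1B is the GTPase that starts assembly of the COPII coat. SAR1B-211, a transcript of 455 bases, was at 0% in both induced clones and both NT libraries, against 13.4% and 17.8% in uninduced c1 and c2 (adjusted p = 0.0107), on 41.2 and 47.5 estimated reads. These were 1.61% and 2.18% of the gene's estimated reads. MCU-210, a non-coding transcript of the mitochondrial calcium uniporter gene, was at 0% in both induced clones, against 17.5% and 10.3% in uninduced c1 and c2 (adjusted p = 0.039). SLC9A3R2-204, of a scaffold protein of membrane transporters, was at 0% in both induced clones, against 25.3% and 7.20% in uninduced c1 and c2 (adjusted p = 0.01), and SLC35F6-202, an NMD transcript, was at 0% in both, against 6.77% and 7.93% in uninduced c1 and c2 (adjusted p = 0.0445, and 0.158 without the block).

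The last 4 of the 20 genes were MKLN1, TMEM116, RNF10 and ADK. MKLN1-203, of the ubiquitin ligase subunit muskelin, was at 0% in both induced clones, against 18.2% and 13.0% in uninduced c1 and c2 (adjusted p = 0.0107), which over estimated reads was 6.72% and 5.06%. In the NT clone the share of MKLN1-203 changed by −10.4 points, in the same direction. TMEM116-215 was at 0% in both induced clones, against 14.8% and 11.9% in uninduced c1 and c2 (adjusted p = 0.0305). RNF10-222, a retained-intron transcript of a ubiquitin ligase of ribosomal proteins, was at 0% in both induced clones, against 11.1% and 11.7% in uninduced c1 and c2 (adjusted p = 0.00352), and 5.37% and 3.42% in induced and uninduced NT. Over estimated reads RNF10-222 held 1.38% and 1.44% in the uninduced clones. ADK-206, of adenosine kinase, gained share, with 6.25% and 6.93% in induced c1 and c2, against 0% in both uninduced clones (adjusted p = 0.0133).

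**Figure D5:**
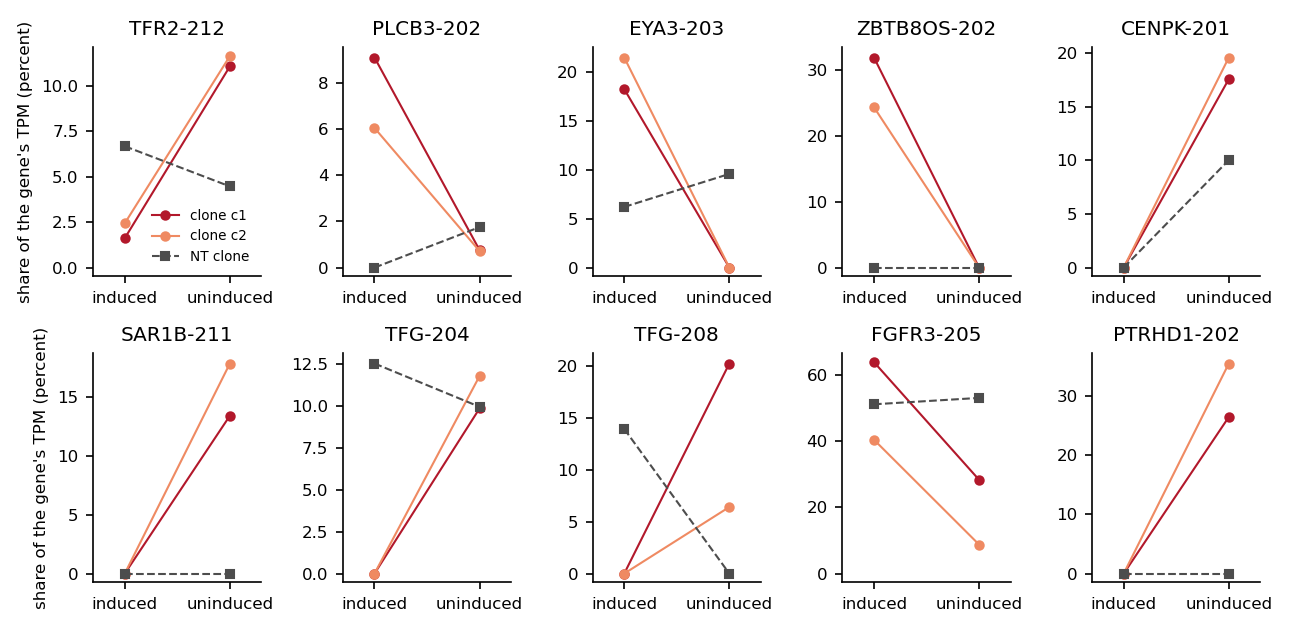
Points give the percentage of the gene's TPM held by 10 named transcripts in each library, induced left and uninduced right, with lines joining the libraries of a clone (circles for c1 and c2, squares and dashes for NT). TFR2-212 and PLCB3-202 were above 0 in all 4 CDAN1 shRNA libraries, FGFR3-205 is shown as a large move that was not called, and in EYA3-203 the NT libraries (6.19% and 9.56%) lie between the induced clones and 0.

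The pairs of gained and lost transcripts in the 167 genes with a call differed in structure in several ways. For each gene the pair is the transcript taken as gaining most and the one taken as losing most on average. A pair need not hold the called transcript: that of NAP1L1 is NAP1L1-202 and NAP1L1-213, while NAP1L1-226 was called. Some moved in opposite directions in the clones, such as YAF2-203 with 19.36 points in c1 and −7.346 in c2. The counts below therefore describe these pairs and not the called transcripts. Not every pair holds a gain: LAS1L-205, taken as gaining, changed by −0.392 and −0.462 points in c1 and c2, and ANXA1-202 also fell in both. The same counts were not made for genes without a call, so the counts below have no background. In 95 of the 167 pairs the coding sequences differed, in 23 they were the same, and in 49 at least 1 of the pair had no coding sequence. The first exons did not overlap in 91 pairs, and the last exons did not overlap in 53. By class, the 184 called transcripts were 124 protein coding, 21 NMD, 20 retained intron, 18 processed transcripts and 1 non-stop, among 20320 protein coding, 3141 NMD, 7687 retained intron and 3999 processed transcripts tested.

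The response of the clones was then set against that of the NT clone, which also received doxycycline. In a fit over all 6 libraries with the clone as a block, 205 of 44626 transcripts (0.459%) had a response that differed from the NT response, 110 upward (0.246%) and 95 downward (0.213%), and by gene 165 of 9458 (1.74%). Of these transcripts 171 belonged to the studied genes, and 47 of the 184 above were among them. Of the 184, the NT share difference had the same sign as in c1 for 61 and the opposite sign for 48. With only transcripts above 0 in all 6 libraries, edgeR called 0 (1255 at an unadjusted p under 0.05). EYA3-203 differed from NT (adjusted p = 0.0107), as did TFG-208 (adjusted p = 0.00845) and PLCB3-202 (adjusted p = 0.0215), while ZBTB8OS-202 and CENPK-201 had an adjusted p of 1.

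Of all tested transcripts of the studied genes 0.522% were called, and the shares given for the gene lists below stand beside that. Of the same 35239 transcripts, 1105 had an unadjusted edgeR p under 0.05, DESeq2 called 406 and limma called 0. The lists were chosen with earlier results of these data known, so their shares are descriptions and not tests. Of the 24 tested transcripts of 4 congenital dyserythropoietic anaemia genes, 1 gained and 0 lost (4.17%). It was KIF23-207, of the mitotic kinesin mutated in the type III disease, with 8.43% and 2.78% in induced c1 and c2, against 0% in both uninduced clones (adjusted p = 0.0248), and 0% and 6.45% in induced and uninduced NT. Its junction skips the exon shown above, and KIF23-202, which includes that exon, held 41.3% and 41.7% in induced c1 and c2, against 55.9% and 54.0% in uninduced c1 and c2, and was not called. Of 150 tested transcripts of 24 histone chaperone genes, 0 gained and 2 lost (1.33%), ANP32A-202 and NAP1L1-226, each under 1% of its gene in the CDAN1 shRNA libraries. Of 66 tested transcripts of 11 genes listed for the COPII coat and its exit sites, 0 gained and 4 lost (6.06%), TFG-204, TFG-208, SAR1B-211 and SEC16A-201. TFG-204 and TFG-208 come from the same gene. SEC16A-201 had reads only in uninduced c1, with 7.615% there and 0% elsewhere (adjusted p = 0.0415), and neither DESeq2 nor the fit without the block (adjusted p = 0.339) called it. The median share moved over the COPII genes was 14.5% in c1, 11.4% in c2 and 5.59% in NT, against 8.49%, 7.13% and 7.57% over all studied genes.

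Splicing regulators were among the lists because a change in their activity would reach many genes. Of 97 tested transcripts of 12 SR and TRA2 factors, of 182 of 18 hnRNPs and of 175 of 36 core spliceosome genes, edgeR called 0. At an unadjusted p under 0.05 there were 2, 8 and 3, DESeq2 called 0, 2 and 1, and limma called 0. Over all 35239 tested transcripts of the studied genes these counts were 1105, 406 and 0. HNRNPLL-202, of a splicing regulator, was among those of DESeq2 (adjusted p = 0.0307), with 12.6% and 10.7% in induced c1 and c2, against 2.62% and 3.09% in uninduced c1 and c2. Of 232 tested transcripts of 25 other splicing regulators and SR kinases, 1 gained and 2 lost (1.29%), all of MBNL1, a regulator of alternative splicing and polyadenylation. MBNL1-202 held 1.12% and 2.09% in induced c1 and c2, against 0% in both uninduced clones (adjusted p = 0.000607). MBNL1-224 was at 0% in both induced clones, against 1.14% and 2.21% in uninduced c1 and c2 (adjusted p = 0.000664). MBNL1-201 was at 0% in both induced clones, against 0.565% and 0.390% in uninduced c1 and c2 (adjusted p = 0.00451). The 3 have no 31-base word of their own, so reads cannot separate them with certainty. Of 87 tested transcripts of 16 NMD factors 1 gained (1.15%), UPF2-203, and of 101 of 17 polyadenylation factors edgeR called 0 (7 at an unadjusted p under 0.05, 1 by DESeq2 and 0 by limma).

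In the lists of red cell membrane skeleton genes and of erythroid transcription factors and haem synthesis, the calls fell in ADD1 and ALAS2. TFR2, described above, is in neither list, and neither are GYPB and ABCB6, which also had a called transcript. Of 120 tested transcripts of 17 red cell membrane skeleton genes, 1 gained and 1 lost (1.67%), ADD1-201 and ADD1-204 of alpha-adducin. ADD1-201 held 1.73% and 1.65% in induced c1 and c2, against 0% in both uninduced clones and both NT libraries (adjusted p = 0.00451, and 0.472 without the block). ADD1-204 had reads only in uninduced c2, at 3.24% (0.826 without the block). Of 127 tested transcripts of 17 erythroid transcription factor and haem synthesis genes, 1 gained (0.787%). This was ALAS2-207, of the erythroid enzyme that starts haem synthesis, with 13.1% and 5.12% in induced c1 and c2, against 0% in both uninduced clones (adjusted p = 0.00352), and 3.12% and 0% in induced and uninduced NT. Over estimated reads it held 3.65% and 1.34% in induced c1 and c2, and without the block its adjusted p was 0.207. Of 130 tested transcripts of 20 cytokinesis and mitosis genes 2 gained (1.54%), KIF23-207 and CIT-202. CIT-202, of citron kinase, had reads only in induced c1, at 4.15%, and neither DESeq2 nor the fit without the block (adjusted p = 0.768) called it. Of 123 tested transcripts of 17 DNA break repair genes 1 gained (0.813%), on a mean of under 20 estimated reads. Of 82 of 13 cell death genes edgeR called 0 (4 at an unadjusted p under 0.05, 0 by DESeq2 and 0 by limma).

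The leading transcript, the one with the largest share, changed between the induced and uninduced culture in 593 genes in c1 (8.75%), in 458 in c2 (6.76%) and in 481 in NT (7.10%). It differed between the uninduced cultures of c1 and c2 in 555 genes (8.19%). In 72 genes both clones changed from the same transcript to the same other transcript, and in 63 they made opposite changes between the same pair. Of the 72, 9 made the same change in NT. The 10 of them with the largest smaller change include ZBTB8OS, described above, and 9 genes with no called transcript. LRRC8B, of a subunit of the volume-regulated anion channel, led with LRRC8B-201 in the induced clones (47.8% and 48.8%), against 36.3% and 32.3% in uninduced c1 and c2, where LRRC8B-203 led. LRRC8B-203 held 0% in induced NT and 49.0% in uninduced NT, a wider difference in the same direction. DNAJC7, a co-chaperone, led with DNAJC7-202 in induced c1 and c2 (45.6% and 35.7%), against 28.5% and 24.1% in uninduced c1 and c2. SAP130, a subunit of the SIN3 corepressor complex, led with SAP130-201 in induced c1 and c2 (47.5% and 41.9%), against 24.1% and 32.1% in uninduced c1 and c2. In SAP130 the NT clone held 26.7% induced and 32.97% uninduced, below both induced clones. The others were ARL6IP6, ELOVL7, LIMA1, SC5D, RIPK1 and SMN2, whose near-identical copy SMN1 makes its values uncertain. Among them RIPK1-201 held 53.1% and 51.7% in induced c1 and c2, against 31.5% and 45.8% in uninduced c1 and c2, and 55.5% and 95.9% in induced and uninduced NT.

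The largest moves of the same direction in both clones, among transcripts with a mean of 100 or more reads, were of FGFR3-205, PTRHD1-201, ABHD4-203, MAGEA3-201, FAM72C-202 and FBXL5-202, named after their values were seen. None was called by edgeR, and ABHD4-203 was not tested, since no other transcript of its gene passed the read minimum. FGFR3-205, of a fibroblast growth factor receptor, held 63.8% and 40.4% in induced c1 and c2, against 28.3% and 8.75% in uninduced c1 and c2. The NT clone had 51.1% induced and 53.0% uninduced, within the range of the induced clones. The edgeR adjusted p was 1 and that of DESeq2 2.78e-05. PTRHD1-201 held 100% and 99.8% in induced c1 and c2, against 72.3% and 64.3% in uninduced c1 and c2. The rest lay mainly on PTRHD1-202, a retained-intron transcript of 424 bases with fewer reads, which was at 0% in both induced clones and both NT libraries, against 26.5% and 35.5% in uninduced c1 and c2 (edgeR adjusted p = 0.172, DESeq2 adjusted p = 0.000164). PTRHD1-202 had 39.1 and 58 estimated reads there, which was 6.90% and 9.85% of the gene's reads. PTRHD1 (chromosome 2, to 24793382) overlaps CENPO (from 24793136), and CENPO-203 had the same pattern over the libraries. Whether these moves are independent was not tested. ABHD4-203 held 96.1% and 95.9% in induced c1 and c2, against 70.6% and 67.7% in uninduced c1 and c2, but over estimated reads it held 98.8% and 98.7%, against 97.2% and 98.0%. MAGEA3-201 held 100% and 90.8% in induced c1 and c2, against 55.2% and 35.8% in uninduced c1 and c2, and FAM72C-202 held 83.5% and 100%, against 55.3% and 73.2%. MAGEA3 and FAM72C have near-identical copies in the genome, so these values are uncertain. FBXL5-202, of an iron-sensing ubiquitin ligase subunit, held 7.16% and 0% in induced c1 and c2, against 29.6% and 28.1% in uninduced c1 and c2, and 9.27% and 21.8% in induced and uninduced NT.

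The make-up of messenger RNA by transcript class was close to constant. Protein-coding transcripts held 86.3% and 85.3% of the TPM of the 6778 genes in induced c1 and c2, against 85.8% in both uninduced clones, and 85.3% and 85.4% in induced and uninduced NT. Retained-intron transcripts held 6.44% and 6.86% in induced c1 and c2, against 6.62% and 6.45% in uninduced c1 and c2, and 7.01% and 6.86% in induced and uninduced NT. NMD transcripts held 2.58% and 2.78% in induced c1 and c2, against 2.68% and 2.76% in uninduced c1 and c2, and 2.68% and 2.70% in induced and uninduced NT. In the 3 classes the clones moved in opposite directions, by under 0.5 points each. The mean differences were 0.00552 ± 0.696 points for protein coding, 0.117 ± 0.423 for retained intron and −0.0361 ± 0.0843 for NMD (SD, n = 2 clones), each smaller than its SD. With 2 clones an exact sign-flip test cannot give a p under 0.5, so none was run. Per gene, the summed retained-intron share moved by 5 points or more upward in both clones in 87 of 4480 genes, downward in both in 76, and in opposite directions in 142. For NMD transcripts the counts were 43, 46 and 78 of 3249 genes.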

How the data were processed

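Total RNA of 6 K562 cultures was made into libraries with the NEBNext Ultra kit, per the labels' protocols. Salmon 1.5.2 and the build GRCh37 (hg19) are named in the submitters' processing notes. Each deposited table holds an estimated count of reads (expected count) and a TPM per transcript, per the file headers. Strand and annotation are not given in sources used here, so antisense and overlapping genes are uncertain. Library totals were 28318555 to 32352246 estimated reads.

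Of 167268 listed transcripts, 151039 matched GENCODE 29 by identifier, and the rest held 6.23% to 6.50% of reads and were not used. Of the 67632 studied transcripts, 63761 (94.3%) had the same length in the deposited tables and in GENCODE 29. Positions are those of GENCODE 29 on GRCh38.

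Groups and clones came from the sample titles, where the second clone is c2, although its deposited table is named for C3. Estimated counts were rounded, and edgeR 4.0.16 (TMM, glmQLFit, diffSpliceDGE, two-sided) in R 4.3.3 tested transcripts with a mean of 10 or more estimated counts in genes with 2 or more such transcripts, with the clone as a block. This leaves 1 residual degree of freedom, so each p-value rests largely on a spread pooled over transcripts. A transcript at 0 in both libraries of a condition is fitted exactly and gives no residual. Its p-value does not measure agreement of the clones. The clone pairs the libraries by the labels. Deviations of shares from the group means correlated within a clone at 0.0820 (c1), 0.145 (c2) and 0.275 (NT). DESeq2 1.42.0, limma 3.58.1 and other settings were alternatives. Intervals and limits for a count of 0 (3 counts) cover counting error only. 31-base words were compared over the GENCODE 29 sequences alone.

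Named were CDAN1, the 20 genes with the largest smaller share difference among calls of the same sign in both clones, up to 10 genes with the same change of leading transcript, and, per gene list, the called transcripts and the largest same-sign difference, at a mean of 20 or more reads except for CDAN1. The genes and the 14 lists were chosen with earlier results of these data known.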

Additional observations from a re-analysis of the deposited data

Results flagged for a closer look

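For 12 named transcripts the share response of the CDAN1 shRNA clones differed from that of the NT clone (edgeR over all 6 libraries, clone as a block, adjusted over 44626 transcripts). The NT response is 1 library against 1, and each of the 12 was listed at 0 in at least 1 of the 6 libraries. EYA3-203 changed by 18.2 and 21.4 points in c1 and c2, against −3.37 in NT (adjusted p = 0.0107). TMEM116-215 changed by −14.8 and −11.9 points, against 10.3 in NT (adjusted p = 0.00802). RNF10-222 changed by −11.1 and −11.7 points, against 1.95 in NT (adjusted p = 0.0178). TFG-208 changed by −20.3 and −6.43 points, against 14.0 in NT (adjusted p = 0.00845), and TFG-204 by −9.84 and −11.8 points, against 2.58 in NT (adjusted p = 0.0197). SLC9A3R2-204 changed by −25.3 and −7.20 points, against 5.23 in NT (adjusted p = 0.00899). KIF23-207 changed by 8.43 and 2.78 points, against −6.45 in NT (adjusted p = 0.0146), and PLCB3-202 by 8.35 and 5.34 points, against −1.75 in NT (adjusted p = 0.0215). RPS3-204 changed by 5.30 and 1.07 points, against −0.0797 in NT (adjusted p = 0.00845). For ATXN7L3-210 (10.3 and 9.12 points, against 8.86 in NT, adjusted p = 0.0282), ADK-206 (6.25 and 6.93 points, against 2.18 in NT, adjusted p = 0.0437) and LRRC8B-203 (−14.1 and −13.3 points, against −49.0 in NT, adjusted p = 0.0018) the shares moved in the same direction in NT. In the first 2 of these both uninduced clones were listed at 0, and in LRRC8B-203 the induced NT library was.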

How the results depend on the processing

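The 231 calls fell to 69 with a mean of 50 or more reads required, to 97 with transcripts of the same coding sequence summed and to 1 with transcripts at 0 left out (the last 2 added after the data were seen). DESeq2 gave 548, of which 175 were among the 231, and limma gave 0 with either pseudocount (1812 and 2103 at an unadjusted p under 0.05). Leaving out each library in turn gave 147 to 298, without the block, since none could then be fitted, and 56 to 91 of these were among the 231. Without the replicate block there were 176 calls, 119 of them shared, and for the difference from NT 138 against 205. RLE scaling gave 229 and 205, no read minimum 174, and testing the studied genes alone 215. The difference from NT gave 134 at 50 or more reads and 0 with transcripts at 0 left out (1255 at an unadjusted p under 0.05).

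Counts of same and opposite moves of 10 points were 243 and 254. They became 166 and 158 over estimated reads, 101 and 91 at 20 TPM or more per gene, and 256 and 257 with only transcripts of 10 or more reads in the gene sum. The 72 shared changes of the leading transcript became 37 over estimated reads and 46 at 20 TPM or more. The class differences changed sign: protein coding was −0.08067 points over estimated reads and −0.4868 in c2 alone, against 0.4979 in c1 alone. NMD ran from −0.09569 in c1 alone to 0.02355 in c2 alone, retained intron from −0.1825 in c1 alone to 0.4157 in c2 alone, and processed transcripts from −0.2061 in c1 alone to 0.02434 in c2 alone. Of the 107 named transcripts, 48 moved by more than the spread between the clones over estimated reads, and no called one changed direction. Where no construction of a setting shows it, the cause was not tested. Depth limits shares of short transcripts most, since a few reads can give a large share of TPM.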

Other observations

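Other genes moved as far in opposite directions in the 2 clones. ABCF1-201, of a ribosome-associated ATPase, held 100% and 61.4% of its gene's TPM in induced c1 and c2, against 57.5% and 90.8% in uninduced c1 and c2. PHF23-202, of a PHD finger protein, held 27.7% and 0% in induced c1 and c2, against 0% and 25.8% in uninduced c1 and c2, and 33.9% and 18.3% in induced and uninduced NT. FAM98A-201, of a partner of the tRNA ligase complex, held 94.3% and 59.8% in induced c1 and c2, against 71.2% and 87.1% in uninduced c1 and c2. In PHF23 the transcript carried 404.5 estimated reads in induced c1 and 366.2 in uninduced c2, and 0 in the other 2 libraries.

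Transcripts also switched between exactly 0 and 50 or more estimated reads in every clone. They numbered 433 in c1, 375 in c2 and 321 in NT at 0 in the induced library, and 484, 371 and 380 at 0 in the uninduced library. Of these, 56 were at 0 in both induced clones and 41 at 0 in both uninduced clones with 50 or more reads in both of the others, while 48 and 62 switched in opposite ways in c1 and c2.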
